A study of Mus musculus with 8 samples.

Results

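The chemokine axes of CXCR3 and CXCR6, which draw activated T cells and natural killer (NK) cells into inflamed tissue, were followed through single cells of mouse tumors. Their genes were taken by symbol: the ligands Cxcl9, Cxcl10 and Cxcl11 with their receptor Cxcr3, and the ligand Cxcl16 with its receptor Cxcr6. Of these 6 listed genes, 5 were analysed, out of 19024 gene symbols in the matrices, and Cxcl11 was not analysed here.

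The tumors were MB49, a mouse urothelial cancer line, grown under the skin of C57BL/6 mice. Hosts of 4 libraries, numbered 3, 4, 7 and 8, were UbcreERT2/+;Atg7f/f, and their Atg7, which encodes an enzyme needed to build autophagosomes, was deleted by tamoxifen; they are called deleted hosts. Hosts of the other 4 libraries, numbered 1, 2, 5 and 6, were UbcreERT2/+;Atg7+/+ and are called wild-type hosts. Mice of both genotypes carried the tamoxifen-inducible Cre driven by the ubiquitin C promoter, and the labels describe tamoxifen on 4 days without separating the genotypes. Injection of the tumor cells followed 1 week after that, with 2 tumors on each mouse, and the tumors grew for 3 weeks. Ages are not given in the labels, and which tumors came from the same mouse is not stated in them. Replicates may therefore include tumors of 1 animal, in which case the p-values would be smaller than they should be. The series addresses whether autophagy of the host holds back T cells in a tumor that carries many mutations.

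CXCL9, CXCL10 and CXCL11 are small secreted chemokines that interferon-gamma induces in macrophages, dendritic cells, fibroblasts and epithelial cells, and all of them bind CXCR3 on activated T cells and NK cells. CXCL16 is made as a membrane protein by macrophages and dendritic cells, is released by the proteases ADAM10 and ADAM17, and binds CXCR6, a receptor of effector and tissue-resident T cells. In tumors, macrophages and dendritic cells are known sources of CXCL9. The C57BL/6 strain is known to carry a disrupted Cxcl11, and the GENCODE M21 annotation of mm10 lists that gene as a polymorphic pseudogene.

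Cxcl9 (ENSMUSG00000029417) lies on mm10 chromosome 5 from 92321347 to 92328079, and Cxcl10 (ENSMUSG00000034855) on the same strand from 92346638 to 92348889. The gap between them is 18558 bases, and Cxcl11 (ENSMUSG00000060183, chromosome 5, 92359544 to 92365485) follows 10654 bases further on, so the interferon-induced ligands stand side by side on the minus strand. Cxcl16 (ENSMUSG00000018920) is on chromosome 11 from 70453983 to 70459984, minus strand. The receptors lie elsewhere, Cxcr3 (ENSMUSG00000050232) on chromosome X from 101731535 to 101734269, minus strand, and Cxcr6 (ENSMUSG00000048521) on chromosome 9 from 123806475 to 123811760, plus strand. The 250 bases before the starts of Cxcl9 and Cxcl10 are shown because these neighbours were both at lower mean levels in macrophages and dendritic cells of deleted hosts. They are RefSeq sequences of GRCm38.p6, minus strand, chr5:92328080-92328329 and chr5:92348890-92349139, with the 1 match to a searched motif in capitals.
Cxcl9: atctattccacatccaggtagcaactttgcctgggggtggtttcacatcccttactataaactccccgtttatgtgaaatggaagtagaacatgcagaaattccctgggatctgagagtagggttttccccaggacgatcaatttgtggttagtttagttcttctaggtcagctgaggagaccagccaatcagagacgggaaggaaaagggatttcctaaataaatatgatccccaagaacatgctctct
Cxcl10: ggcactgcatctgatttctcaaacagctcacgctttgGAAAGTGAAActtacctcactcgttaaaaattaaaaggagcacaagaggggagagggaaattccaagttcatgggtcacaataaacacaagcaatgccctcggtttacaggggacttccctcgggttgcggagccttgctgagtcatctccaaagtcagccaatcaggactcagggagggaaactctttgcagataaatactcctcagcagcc

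Both strands were searched for 3 motifs. They were the interferon-stimulated response element, written as GAAA, any 2 bases and GAAA again, and the gamma-activated site TTCNNNGAA. The last was a narrow form of the kappaB site, written as GGG, any 2 bases and TTTCC. The Cxcl10 window held 1 match to the interferon-stimulated response element, 213 to 204 bases before the start, which 2.98% of 32841 mouse promoters of the same length also hold. The Cxcl9 window held no match to these letters, nor did the windows of Cxcr3 and Cxcr6. The gamma-activated site was found in 7.02% and this form of the kappaB site in 1.41% of all promoters. A match describes the sequence, and no match says only that these letters are not in the window. Other forms of the kappaB site were not searched, and the windows may hold them.

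The 8 libraries held 29496 deposited cells, of which 28473 were kept, with the fewest, 941, in deleted library 7 and the most, 5796, in wild-type library 5. Total UMIs (unique molecular identifiers, which count molecules) were lowest in deleted library 7, at 4371773, and highest in wild-type library 6, at 59235799. The median UMIs per cell averaged 2938 in deleted hosts and 7260 in wild-type hosts. Malignant urothelial-like cells made up 5.43% ± 4.71 of cells in deleted hosts and 58.4% ± 11.0 in wild-type hosts (SD, n = 4 each), so every level over whole tumors depends on this mix. Between any pair of libraries, 0 to 46 cell barcodes were shared. Atg7, the deleted gene, gave 0.104, 0.166, 0.0850 and 0.305 UMIs per 10000 over all cells of deleted libraries 3, 4, 7 and 8, against 0.411, 0.312, 0.146 and 0.161 in wild-type libraries 1, 2, 5 and 6, with overlap (two-sided exact permutation p = 0.257). Its level in monocyte/macrophage-like cells was 0.0133 to 0.147 in deleted hosts and 0.168 to 0.455 in wild-type hosts, without overlap, and the exact permutation p was 0.0286. The T-like cells gave 0.121 to 0.229 in deleted hosts and 0.0902 to 0.286 in wild-type hosts (exact permutation p = 0.886). Lower Atg7 was therefore not detected in T-like cells. Malignant-like cells gave 0.0529 to 0.393 and 0.143 to 0.402 in the same order (exact permutation p = 0.971). They stand for the injected MB49 line, and the deletion was made in the hosts. The Atg7 level over all cells includes them, at shares that differed between genotypes as given above. Reads of this assay come from the 5′ end of transcripts, and whether they cover the deleted part is not given in the sources used here. Libraries 1 to 4 and libraries 5 to 8 carry barcodes of 2 different sets, each with 2 tumors per genotype, and values within these sets are given where they bear on a result.

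The ligands were read mainly in myeloid cells, fibroblasts and tumor cells, and the receptors in lymphocytes. Levels are UMIs per 10000 UMIs of a cell, averaged over a library's cells of the class, where the library had at least 20 of them. Over all libraries with enough cells, Cxcl9 averaged 3.68 ± 1.91 in fibroblast-like cells (SD, n = 8), 2.61 ± 1.42 in dendritic-like cells (n = 7), 1.81 ± 1.51 in monocyte/macrophage-like cells and 1.52 ± 2.00 in malignant-like cells (n = 8 each). Neutrophil-like cells averaged 0.515 ± 0.360, T-like cells 0.407 ± 0.240 and NK-like cells 0.104 ± 0.150. The libraries of neighbouring classes in this order overlapped, and the order pools genotypes. Malignant-like cells averaged 2.51 ± 2.58 in deleted hosts, with deleted library 3 at 6.22, and 0.521 ± 0.0584 in wild-type hosts (SD, n = 4 each), where neutrophil-like cells at 0.634 ± 0.499 and T-like cells at 0.580 ± 0.129 had higher means. Endothelial-like cells reached 20 cells in 2 deleted libraries alone, at 3.48 and 7.27.

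Cxcl10 was spread more widely. Its level averaged 6.26 ± 2.66 in neutrophil-like cells, 5.24 ± 3.34 in monocyte/macrophage-like cells, 4.47 ± 2.82 in fibroblast-like cells (SD, n = 8 each) and 4.27 ± 1.87 in dendritic-like cells (n = 7), which overlapped with each other. Malignant-like cells averaged 2.50 ± 1.49, T-like cells 1.18 ± 0.478 (n = 8 each) and NK-like cells 0.744 ± 0.356 (n = 7). Cxcl16 set dendritic-like cells at 6.24 ± 1.45 (n = 7) and monocyte/macrophage-like cells at 5.33 ± 1.43 (n = 8) above the means of the other classes, among them fibroblast-like cells at 1.10 ± 0.563 and malignant-like cells at 0.952 ± 0.517 (n = 8 each). Endothelial-like cells had 1.45 and 1.08 in deleted libraries 3 and 4, the pair with enough of them.

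**Figure D1:**
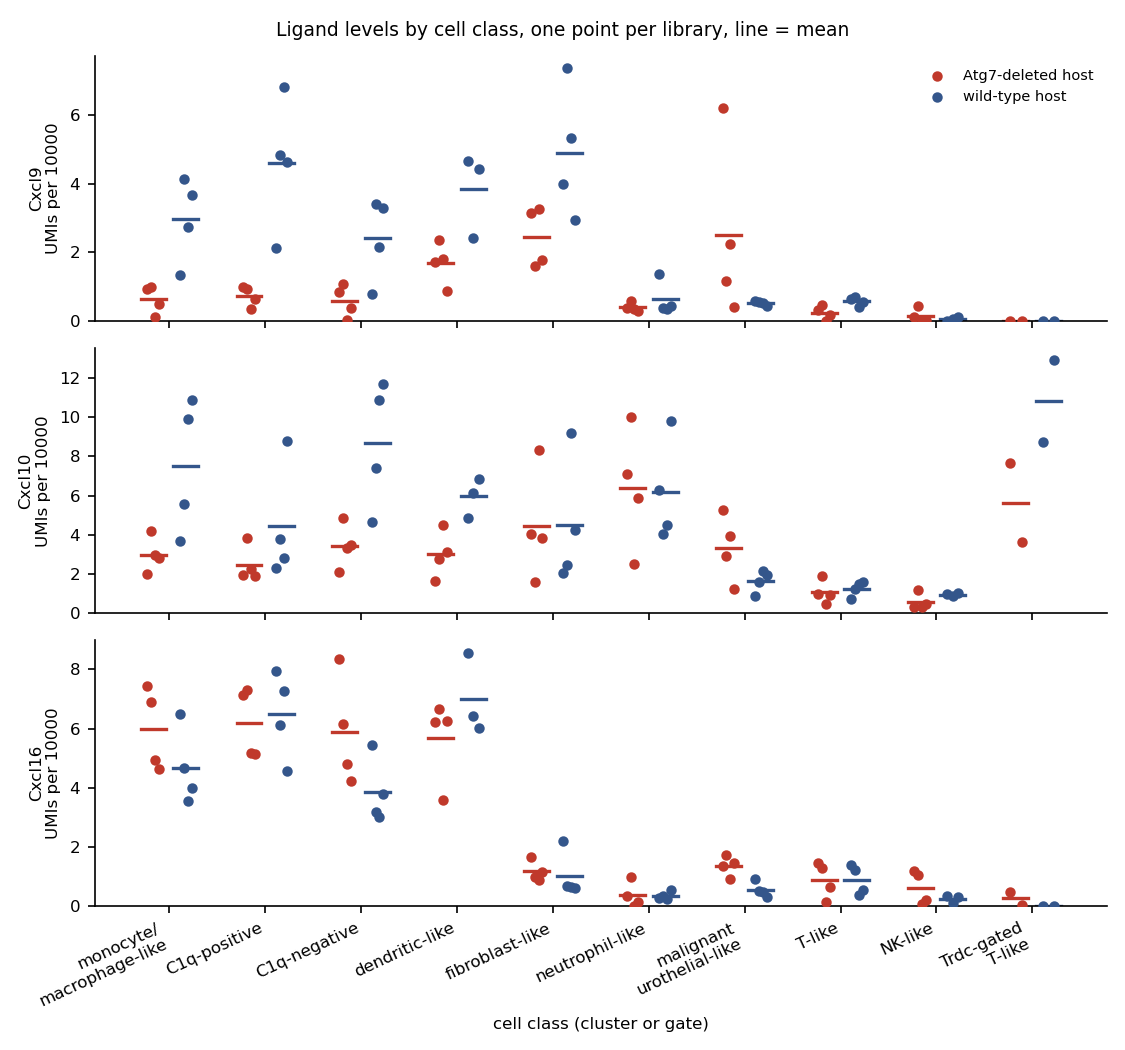
Levels of Cxcl9, Cxcl10 and Cxcl16 (y axes, UMIs per 10000, linear from 0) by cell class (x axis), with 1 point per library and a line at the mean, deleted hosts in red left of wild-type hosts in blue. In monocyte/macrophage-like cells the 4 deleted libraries of Cxcl9 sit between 0.121 and 0.987, below the lowest wild-type library at 1.35.

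The cells that held most ligand molecules differed with the makeup of the tumors. Of the Cxcl9 UMIs, fibroblast-like cells held 48.6% ± 30.1 in deleted hosts and 7.45% ± 4.16 in wild-type hosts, while malignant-like cells held 13.3% ± 18.9 in deleted hosts and 56.5% ± 25.2 in wild-type hosts (SD, n = 4 each). Monocyte/macrophage-like cells held 21.9% ± 21.6 in deleted hosts and 26.1% ± 19.4 in wild-type hosts. The shares describe the sequenced cells, whose numbers per class were also set by dissociation and a density gradient.

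For Cxcl10, malignant-like cells held 12.7% ± 18.4 of UMIs in deleted hosts and 70.2% ± 15.6 in wild-type hosts, and fibroblast-like cells held 37.8% ± 28.6 in deleted hosts and 1.70% ± 0.540 in wild-type hosts (SD, n = 4 each). Cxcl16 UMIs came from monocyte/macrophage-like cells for 61.9% ± 23.5 in deleted hosts and 34.7% ± 23.1 in wild-type hosts. Malignant-like cells held 9.39% ± 14.3 of Cxcl16 UMIs in deleted hosts and 52.9% ± 23.9 in wild-type hosts. The receptor UMIs lay in T-like cells, with 47.2% ± 16.6 of Cxcr3 UMIs and 80.2% ± 8.27 of Cxcr6 UMIs in deleted hosts, against 60.4% ± 20.3 and 88.2% ± 7.12 in wild-type hosts. NK-like cells held 26.6% ± 24.3 of Cxcr3 UMIs in deleted hosts and 26.7% ± 24.1 in wild-type hosts.

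**Figure D2:**
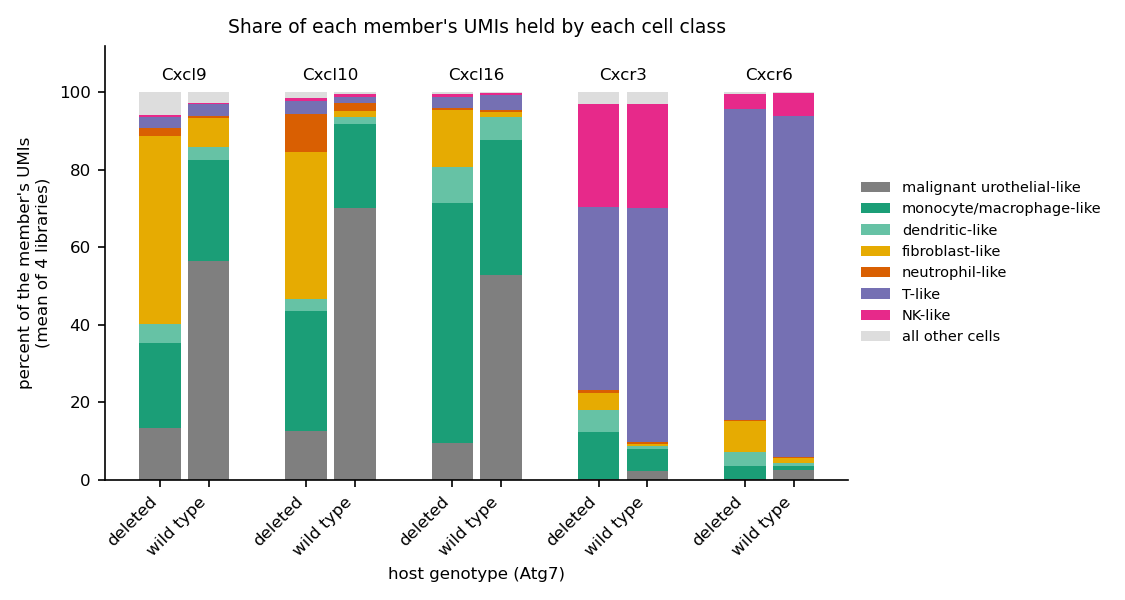
Mean share of each gene's UMIs (y axis, percent, 4 libraries per bar) held by each cell class, with the deleted bar left of the wild-type bar for each gene. Malignant-like cells hold 13.3% of Cxcl9 UMIs in deleted hosts and 56.5% in wild-type hosts, and T-like cells hold most Cxcr6 UMIs in both genotypes.

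Averaged over all kept cells, no level of the 5 genes passed the test between genotypes. Cxcl9 averaged 1.16 ± 0.522 in deleted hosts and 1.21 ± 0.457 in wild-type hosts (two-sided exact permutation p = 0.943), and Cxcl10 3.65 ± 0.866 and 3.12 ± 0.947 in the same order (exact permutation p = 0.457, SD, n = 4 each). Cxcl16 averaged 3.53 ± 1.73 in deleted hosts and 1.71 ± 0.890 in wild-type hosts (exact permutation p = 0.143). For the receptors, Cxcr3 averaged 0.109 ± 0.0310 in deleted hosts and 0.0609 ± 0.0425 in wild-type hosts (exact permutation p = 0.143), and Cxcr6 0.502 ± 0.156 in deleted hosts and 0.331 ± 0.153 in wild-type hosts (exact permutation p = 0.200). Adjusted over the 5 genes, p was at least 0.333, and the smallest p that 4 against 4 libraries allow is 0.0286. Without the malignant-like cells, Cxcl10 averaged 3.70 ± 0.918 in deleted hosts and 5.27 ± 1.87 in wild-type hosts (exact permutation p = 0.171), the opposite direction.

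Within classes, the genotypes were compared by limma on log2(level + 0.1) over all genes that a class detected, with Benjamini-Hochberg adjustment over those genes. Detection asked for a UMI in at least 5% of the class's cells in a number of libraries equal to the size of the smaller group, which left 24 member-by-class tests in 7 classes, and none passed at an adjusted p under 0.05. Each log2 difference is deleted minus wild type and is smaller than the log2 of the fold for low levels. Clustering left out the members and the listed axis genes. Class names came from marker lists that hold no member but include the listed axis genes Ccr7, Ccl22, Ccr2 and Eomes.

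Of the ligands in monocyte/macrophage-like cells, Cxcl9 had the largest gap on the log2 scale and was lower in every deleted library than in any wild-type library. In monocyte/macrophage-like cells Cxcl9 stood at 0.944, 0.987, 0.121 and 0.498 in deleted libraries 3, 4, 7 and 8, against 1.35, 4.14, 2.73 and 3.67 in wild-type libraries 1, 2, 5 and 6. The groups did not overlap, with the highest deleted library below wild-type library 1. Such an order with deleted hosts lower was found for 2.78% of the 5762 genes tested in these cells, and the adjusted test called 0.0174% of them. The means were 0.638 ± 0.409 in deleted hosts and 2.98 ± 1.23 in wild-type hosts (SD, n = 4 each), a log2 difference of -2.19 with an SE of 0.51, and limma's adjusted p was 0.245. The gap ran the same way among libraries 1 to 4 at -1.22 and among libraries 5 to 8 at -3.17. With the barcode set as a term limma's adjusted p was 0.0179, in a fit that called 4.48% of genes in this class.

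The lower Cxcl9 was seen in macrophage subsets and in single clusters. Cells in which at least 2 of the 3 C1q genes were detected, the complement genes of mature macrophages, held 0.980, 0.932, 0.340 and 0.650 in deleted libraries 3, 4, 7 and 8, against 2.12, 4.83, 6.83 and 4.65 in wild-type libraries 1, 2, 5 and 6. These groups were also apart, an order that 2.29% of 6285 genes showed. Their log2 difference was -2.48 with an SE of 0.39 and limma's adjusted p was 0.156, where no gene passed (420 genes had an unadjusted p under 0.05). Leaving out wild-type library 1 gave -2.81 with limma's adjusted p = 0.0341, where 0.0454% of 6609 genes passed, and the barcode set term gave limma's adjusted p = 0.0249, where 0.175% passed. In cells below that C1q gate, Cxcl9 averaged 0.583 ± 0.474 in deleted hosts and 2.42 ± 1.22 in wild-type hosts (SD, n = 4 each), and wild-type library 1 at 0.799 lay within the deleted range. With the barcode set as a term limma's adjusted p there was 0.0395, where 4.03% of genes passed.

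Of the 7 monocyte/macrophage-like clusters, 5 had at least 20 cells in libraries of both genotypes, and mean Cxcl9 was lower in deleted hosts in all 5. The largest, cluster 5, led by Ccl12, Fabp5 and Pf4, made up 36.7% of the class in deleted hosts and 38.3% in wild-type hosts, and held 0.450 in deleted hosts (0.0939 to 1.05, 4 libraries) and 3.95 in wild-type hosts (2.60 to 6.52, 4 libraries). Cluster 6, led by the monocyte genes Chil3 and Plac8, held 0.605 in deleted hosts and 3.88 in wild-type hosts. Other clusters were split between genotypes, with cluster 4 at 22.5% of the class in deleted hosts and 3.23% in wild-type hosts, and cluster 3 at 2.30% in deleted hosts and 35.2% in wild-type hosts. Cluster 8, led by Ighg3, Chil3 and Mmp12 and with 97.05% of its cells from 1 library, had enough cells in 2 deleted libraries alone, at 0.918 and 5.46.

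**Figure D3:**
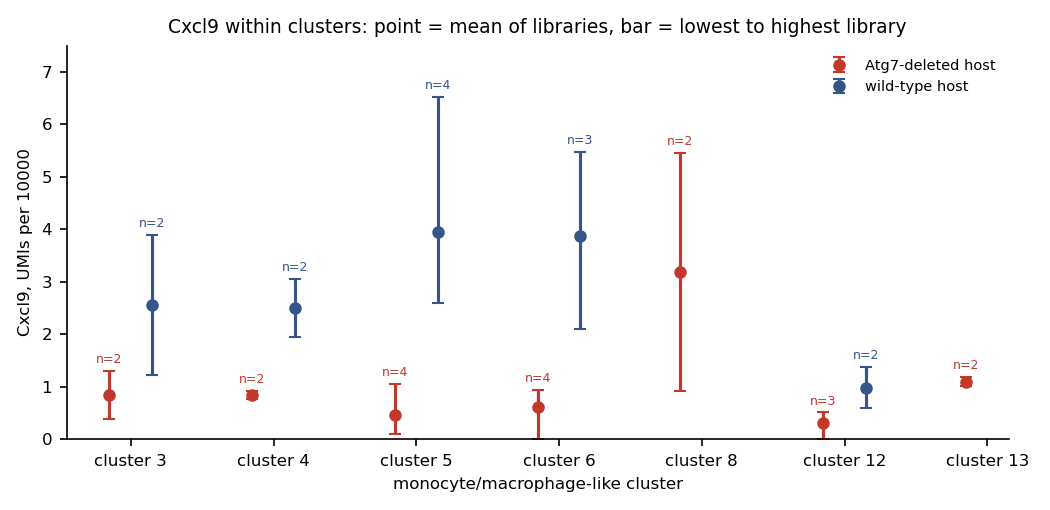
Cxcl9 level (y axis, UMIs per 10000) in each monocyte/macrophage-like cluster (x axis), with the point at the mean of libraries with at least 20 cells, the bar from the lowest to the highest library and n the number of libraries, deleted hosts in red left of wild-type hosts in blue. In the 5 clusters with both genotypes the deleted mean is the lower one, and clusters 8 and 13 have deleted libraries alone.

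The share of cells with a Cxcl9 UMI showed the same order at equal depth. After every cell was thinned to 1000 UMIs, 4.40% ± 3.13 of monocyte/macrophage-like cells had one in deleted hosts and 13.9% ± 4.49 in wild-type hosts (SD, n = 4 each). Thinning left out 1121 of 6038 cells in deleted hosts and 865 of 3314 in wild-type hosts, and without it the shares were 10.2% in deleted hosts and 19.1% in wild-type hosts. NK-like cells, which are not known as a Cxcl9 source, gave 0.538% in deleted hosts (n = 4) and 0.687% in wild-type hosts (n = 3) after thinning. This was taken as background. T-like cells gave higher shares, at 1.96% ± 2.19 in deleted hosts and 4.24% ± 2.37 in wild-type hosts (SD, n = 4 each). Median depth in the monocyte/macrophage-like class was 2353 UMIs in deleted hosts and 2102 in wild-type hosts, and in NK-like cells 3748 and 2050 in the same order.

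In dendritic-like cells both interferon-induced ligands were lower in every deleted library. Cxcl9 stood at 1.71, 2.35, 1.81 and 0.887 in deleted libraries 3, 4, 7 and 8, against 4.68, 2.41 and 4.42 in wild-type libraries 2, 5 and 6; wild-type library 1, with 15 such cells, was not used. Deleted library 4 and wild-type library 5 were close without overlapping. The log2 difference was -1.16 with an SE of 0.35 (limma, adjusted p = 0.247), and 3.65% of 7238 genes showed the same order without overlap, while 0.221% passed the adjusted test. With the barcode set as a term the difference was -1.25 and limma's adjusted p was 0.0480, where 1.04% of genes passed. Cxcl10 stood at 1.66, 2.78, 4.49 and 3.11 in deleted libraries 3, 4, 7 and 8, against 4.88, 6.15 and 6.84 in wild-type libraries 2, 5 and 6, a log2 difference of -1.03 with an SE of 0.34 (limma, adjusted p = 0.274).

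Dendritic-like cells with a UMI of Ccr7, the receptor that takes mature dendritic cells to lymph nodes, had a larger log2 difference of Cxcl10 than the whole class. Their Cxcl10 was 1.33, 3.36 and 1.36 in deleted libraries 3, 4 and 8, against 6.87, 3.81 and 5.66 in wild-type libraries 2, 5 and 6, without overlap, as for 4.69% of 6871 genes. The log2 difference was -1.48 with an SE of 0.41 (limma, adjusted p = 0.258), where 0.0146% of genes passed. Cells without a Ccr7 UMI held Cxcl10 at 3.38 ± 1.90 in deleted hosts (n = 4) and 6.59 ± 3.70 in wild-type hosts (SD, n = 3), with overlap. Cxcl9 in the cells with a Ccr7 UMI averaged 1.75 ± 1.29 in deleted hosts and 4.46 ± 2.44 in wild-type hosts (n = 3 each), a log2 difference of -1.37 with an SE of 0.50 (limma, adjusted p = 0.438), and in the cells without one 1.63 ± 0.499 in deleted hosts (n = 4) and 3.10 ± 1.15 in wild-type hosts (SD, n = 3; log2 difference -0.86, SE 0.39, limma, adjusted p = 0.454). The effects in these subsets were not tested against each other.

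Cxcl10 in monocyte/macrophage-like cells was lower on average in deleted hosts, with overlap of single libraries. It stood at 2.00, 4.17, 2.98 and 2.83 in deleted libraries 3, 4, 7 and 8, against 3.66, 5.56, 9.87 and 10.9 in wild-type libraries 1, 2, 5 and 6. Deleted library 4 exceeded wild-type library 1 and no other. The log2 difference was -1.21 with an SE of 0.36 (limma, adjusted p = 0.346), and with the barcode set as a term limma's adjusted p was 0.0318. The gap was widest in cells below the C1q gate, at 3.44 ± 1.13 in deleted hosts and 8.65 ± 3.24 in wild-type hosts (log2 difference -1.28, SE 0.34, limma, adjusted p = 0.292), where 0.0831% of genes passed, and limma's adjusted p with the barcode set term was 0.0143. Cells above the gate held 2.49 ± 0.898 in deleted hosts and 4.43 ± 2.97 in wild-type hosts (SD, n = 4 each). Of the 5 clusters with both genotypes, 3 had lower mean Cxcl10 in deleted hosts, among them cluster 6 at 3.90 in deleted hosts and 15.8 in wild-type hosts. Cluster 3 ran the other way, at 7.47 to 8.55 in deleted hosts and 3.99 to 5.04 in wild-type hosts (2 libraries each).

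Single cells were also read for both interferon-induced ligands. Of thinned monocyte/macrophage-like cells with a Cxcl9 UMI, 22.9% ± 10.8 also had a Cxcl10 UMI in deleted hosts (n = 3 libraries) and 34.8% ± 12.7 in wild-type hosts (n = 4), against 17.4% ± 4.83 and 27.9% ± 8.39 of the cells without Cxcl9. Cxcl16 was found in 48.3% ± 4.90 of Cxcl9-positive cells in deleted hosts and 39.8% ± 11.5 in wild-type hosts, against 42.1% ± 6.93 and 26.6% ± 6.22 of Cxcl9-negative cells. These shares are a description, since cells of 1 library are not replicates.

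Fibroblast-like and neutrophil-like cells showed smaller gaps. Cxcl9 in fibroblast-like cells was 3.14, 1.61, 3.25 and 1.77 in deleted libraries 3, 4, 7 and 8, against 3.99, 7.38, 5.33 and 2.95 in wild-type libraries 1, 2, 5 and 6. Wild-type library 6 lay below 2 deleted libraries. Between the genotypes the log2 difference was -0.96 with an SE of 0.35 (limma, adjusted p = 0.365), where 0.0976% of 9218 genes passed. Cxcl10 in fibroblast-like cells averaged 4.45 ± 2.80 in deleted hosts and 4.49 ± 3.27 in wild-type hosts (SD, n = 4 each), a log2 difference of 0.02 with an SE of 0.49. Cxcl10 in neutrophil-like cells averaged 6.37 ± 3.11 in deleted hosts and 6.16 ± 2.61 in wild-type hosts, a log2 difference of -0.02 with an SE of 0.42 (limma, adjusted p = 0.982, where 0.650% of 2308 genes passed), and this sign turned under other scalings. Cxcl16 in fibroblast-like cells averaged 1.17 ± 0.350 in deleted hosts and 1.02 ± 0.776 in wild-type hosts (SD, n = 4 each), a log2 difference of 0.34 with an SE of 0.37 (limma, adjusted p = 0.801), and Cxcr6 there 0.0916 ± 0.0216 and 0.117 ± 0.160 in the same order (limma, adjusted p = 0.973).

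In malignant-like cells the ligands ran the other way, at higher means in deleted hosts. Cxcl9 stood at 6.22, 1.18, 2.24 and 0.422 in deleted libraries 3, 4, 7 and 8, against 0.569, 0.545, 0.534 and 0.436 in wild-type libraries 1, 2, 5 and 6. Deleted library 3, with 50 such cells, was far above the rest and deleted library 8 was the lowest of all. The log2 difference was 1.52 with an SE of 0.55 (limma, adjusted p = 0.276), where 0.540% of 9252 genes passed, and without deleted library 3 it was 0.91 (limma, adjusted p = 0.343). Cxcl10 averaged 3.35 ± 1.71 in deleted hosts and 1.64 ± 0.547 in wild-type hosts (log2 difference 0.88, SE 0.40, limma, adjusted p = 0.417, SD, n = 4 each). In 3 malignant-like clusters both genotypes had enough cells, and mean Cxcl10 and Cxcl16 were higher in deleted hosts in each. Mean Cxcl9 was not higher in cluster 1, at 0.849 in deleted hosts (0.239 to 1.49, 3 libraries) and 0.913 in wild-type hosts (0.328 to 1.68, 4 libraries). Cxcl16 there ranged from 0.802 to 2.44 in deleted hosts and from 0.187 to 2.29 in wild-type hosts.

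Cxcl16 in malignant-like cells stood at 1.35, 1.72, 0.898 and 1.46 in deleted libraries 3, 4, 7 and 8, against 0.917, 0.496, 0.475 and 0.302 in wild-type libraries 1, 2, 5 and 6. Only deleted library 7 and wild-type library 1 overlapped. A log2 difference of 1.22 with an SE of 0.32 followed (limma, adjusted p = 0.114). It passed with the barcode set as a term (limma, adjusted p = 0.0316, 1.83% of genes called), with summed UMIs (0.0346, 0.854% called), with median-ratio scaling (0.0114, 1.02% called) and with the mean of the deposited logarithms (0.0247, 17.6% called).

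Monocyte/macrophage and fibroblast markers also had higher means in malignant-like cells of deleted hosts. Cxcl9 in these cells was 6.22, 1.18, 2.24 and 0.422 in deleted libraries 3, 4, 7 and 8. The summed level of the 10 monocyte/macrophage markers in malignant-like cells was 8.62, 6.62, 0.286 and 6.04 in deleted libraries 3, 4, 7 and 8, against 1.95, 1.02, 0.355 and 0.575 in wild-type libraries 1, 2, 5 and 6, and all 10 markers had the higher mean in deleted hosts. In monocyte/macrophage-like cells the same sum ran from 51.4 to 102 in deleted hosts and from 38.6 to 78.9 in wild-type hosts. The 6 fibroblast markers in malignant-like cells summed to 17.7, 7.32, 0.830 and 1.49 in deleted libraries 3, 4, 7 and 8, against 2.30, 0.290, 0.176 and 0.0929 in wild-type libraries 1, 2, 5 and 6, and all 6 had the higher mean in deleted hosts. Dendritic markers summed to 0.244 to 1.13 in deleted hosts and 0.162 to 0.211 in wild-type hosts, without overlap. Of these 9 markers, 7 had the higher mean in deleted hosts. The class's own malignant markers summed to 17.7 to 28.5 in deleted hosts and 28.6 to 42.5 in wild-type hosts, apart by a narrow margin. Of these 7 markers, 3 had the higher mean in deleted hosts. Among 9252 single genes tested in this class, 129 were higher and 671 lower in deleted hosts without overlap. Median depth of malignant-like cells was 5514 UMIs in deleted hosts and 14100 in wild-type hosts, cluster 1 held 48.8% of them in deleted hosts and 20.1% in wild-type hosts, and the part of markers, depth and clusters in the result was not tested.

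**Figure D4:**
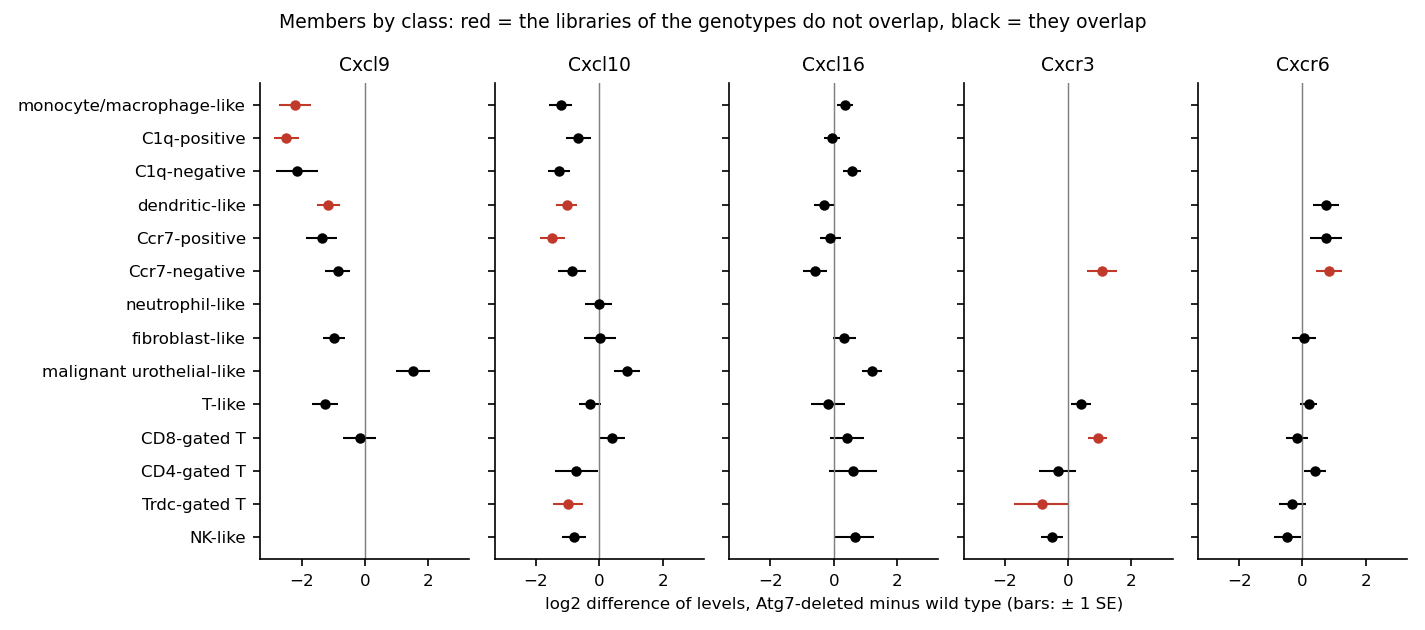
Log2 difference of levels, deleted minus wild type (x axes), with bars of 1 SE, for the 5 genes in each class or gate (rows); red points mark classes in which libraries of the genotypes do not overlap. Cxcl9 lies at -2.19 in monocyte/macrophage-like cells and at 1.52 in malignant-like cells, and Cxcl16 lies between -0.58 and 0.59 in the rows of macrophages, dendritic cells and their subsets.

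Differences between classes were tested within libraries for 13 planned pairs, and none passed after adjustment. The Cxcl9 effect in monocyte/macrophage-like cells minus that in dendritic-like cells was -1.36 on the log2 scale (exact permutation p = 0.0571, adjusted p = 0.248), the smallest p that 4 against 3 libraries allow. The Cxcl9 effect minus that in fibroblast-like cells was -1.23 (exact permutation p = 0.229, adjusted p = 0.330). A comparison of monocyte/macrophage-like with malignant-like cells was added after the values were seen: the effects differed by -3.71 for Cxcl9, -2.09 for Cxcl10 and -0.87 for Cxcl16, each at the smallest exact permutation p of 0.0286.

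Cxcl16 overlapped between genotypes in monocyte/macrophage-like and dendritic-like cells, the classes with its highest mean levels. In monocyte/macrophage-like cells it stood at 7.43, 6.91, 4.92 and 4.62 in deleted libraries 3, 4, 7 and 8, against 6.50, 4.68, 3.55 and 4.00 in wild-type libraries 1, 2, 5 and 6. Its log2 difference was 0.35 with an SE of 0.26 (limma, adjusted p = 0.739). In C1q-gated cells the means were 6.20 ± 1.19 in deleted hosts and 6.49 ± 1.48 in wild-type hosts, and in cells below the gate 5.89 ± 1.83 and 3.85 ± 1.11 in the same order (SD, n = 4 each, limma, adjusted p = 0.550). Dendritic-like cells averaged 5.68 ± 1.41 in deleted hosts (n = 4) and 6.995 ± 1.36 in wild-type hosts (SD, n = 3), with a log2 difference of -0.32 and an SE of 0.31. Within the class, cells with a Ccr7 UMI held 7.96 ± 0.703 in deleted hosts and 8.57 ± 0.979 in wild-type hosts (n = 3 each), and cells without one 3.48 ± 1.24 (n = 4) and 5.16 ± 1.72 (n = 3) in the same order. The sheddases Adam10 and Adam17 were tested in both myeloid classes and neither passed.

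Cxcr3 marked T-like cells and NK-like cells. Over all libraries with enough cells it averaged 0.585 ± 0.239 in T-like cells (SD, n = 8) and 0.655 ± 0.218 in NK-like cells (n = 7), which overlapped, and 0.0509 ± 0.0736 in dendritic-like cells. Malignant-like cells, which should lack it, gave 0.00709 ± 0.0169. At 745 UMIs over all libraries, from 11 in wild-type library 1 to 177 in deleted library 4, Cxcr3 was the sparsest of the 5 genes, which limits every comparison of it.

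In T-like cells Cxcr3 stood at 0.713, 0.891, 0.353 and 0.730 in deleted libraries 3, 4, 7 and 8, against 0.285, 0.753, 0.285 and 0.671 in wild-type libraries 1, 2, 5 and 6. The groups overlapped, and the log2 difference was 0.41 with an SE of 0.32 (limma, adjusted p = 0.592), where 0.799% of 6760 genes passed. The class mixes subsets whose shares differed between genotypes. Cluster 9, led by Cd8b1, Cd8a and Nkg7, made up 20.6% of T-like cells in deleted hosts and 64.3% in wild-type hosts, and cluster 17, led by Tnfrsf4, Cd4 and Ctla4, 54.2% in deleted hosts and 15.1% in wild-type hosts.

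Among CD8-gated T-like cells, those with a Cd8a or Cd8b1 UMI and no Cd4 UMI, Cxcr3 was higher in every deleted library without passing the test. It stood at 0.875, 0.957 and 0.776 in deleted libraries 3, 4 and 8, against 0.344, 0.558, 0.224 and 0.582 in wild-type libraries 1, 2, 5 and 6, and deleted library 7 had 12 such cells and was not used. This order without overlap was found for 5.70% of 7718 genes. The log2 difference was 0.94 with an SE of 0.30 (limma, unadjusted p = 0.0076, adjusted p = 0.600), and no gene passed in this subset, although 550 had an unadjusted p under 0.05. Within libraries 1 to 4 the difference was 0.91 and within libraries 5 to 8 it was 0.90. Monocyte/macrophage markers in the CD8-gated cells summed to 26.9 to 29.97 in the same deleted libraries and 10.5 to 25.1 in wild-type libraries, and their part in the result was not tested. In cluster 9, Cxcr3 averaged 1.06 in deleted hosts (0.864 to 1.27, 3 libraries) and 0.475 in wild-type hosts (0.131 to 0.702, 4 libraries). Of the 4 T-like clusters, the other 3 had lower mean Cxcr3 in deleted hosts. Among them was cluster 16, with Cd8a and Cd8b1 among its top genes, at 0.193 in deleted hosts and 0.311 in wild-type hosts.

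After thinning to 1000 UMIs, 9.11% ± 3.51 of CD8-gated cells had a Cxcr3 UMI in deleted hosts (n = 3) and 3.87% ± 1.83 in wild-type hosts (SD, n = 4), with overlapping ranges (exact permutation p = 0.114, adjusted p = 0.457). Thinning left out 2 of 247 cells in deleted hosts and 16 of 800 in wild-type hosts. Without thinning the shares were 32.1% in deleted hosts and 11.1% in wild-type hosts, at median depths of 5224 and 3470 UMIs in the same order. Malignant-like cells gave 0.258% in deleted hosts and 0.0191% in wild-type hosts after thinning.

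CD4-gated cells, with a Cd4 UMI and none of Cd8a, Cd8b1 or Foxp3, held Cxcr3 at 0.535, 1.09, 0.162 and 0.724 in deleted libraries 3, 4, 7 and 8, against 1.70, 0.311 and 0.582 in wild-type libraries 2, 5 and 6. The groups overlapped widely (log2 difference -0.33, SE 0.59, limma, adjusted p = 0.899), where 0.0320% of 6244 genes passed. The Cxcr3 effect in CD8-gated minus that in CD4-gated cells was 0.78 (exact permutation p = 0.200, adjusted p = 0.325). Cells with a UMI of Foxp3, the gene that defines regulatory T cells, reached 20 cells in deleted library 8 alone, at 1.12 for Cxcr3 and 1.14 for Cxcr6.

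Dendritic-like cells gave traces of Cxcr3, at 0.208, 0.0626, 0.0212 and 0.0534 in deleted libraries 3, 4, 7 and 8, against 0, 0.0110 and 0 in wild-type libraries 2, 5 and 6, under the detection filter. The groups did not overlap, an order that 6.19% of the genes tested in this class showed, at median depths of 6592 UMIs in deleted hosts and 3469 in wild-type hosts. In cells without a Ccr7 UMI, where Cxcr3 was tested, the log2 difference was 1.07 with an SE of 0.48 (limma, adjusted p = 0.452), and 6.17% of 7973 genes were higher in deleted hosts without overlap while 0.288% passed. Cells with a Ccr7 UMI gave 0.0251 to 0.0851 in deleted hosts and 0 in wild-type hosts, also under the filter, where 8.75% of genes tested were higher without overlap. Cxcr6 in the cells without a Ccr7 UMI was 0.0182 to 0.238 in deleted hosts and 0 in wild-type hosts (limma, adjusted p = 0.481). The 6 T cell markers were also higher in deleted hosts, summing to 0.303, 0.578, 0.742 and 0.440 in deleted libraries 3, 4, 7 and 8, against 0.125, 0 and 0.132 in wild-type libraries 2, 5 and 6 in the cells without a Ccr7 UMI. Cxcr3 in the same cells was 0.415, 0.0945, 0.0303 and 0.102 in deleted libraries 3, 4, 7 and 8, from 17 UMIs over all libraries. All 6 markers had the higher mean in deleted hosts, and their part in the result was not tested. In the whole dendritic-like class Cxcr6 averaged 0.225 ± 0.0924 in deleted hosts (n = 4) and 0.103 ± 0.0983 in wild-type hosts (SD, n = 3), with overlap (log2 difference 0.74, SE 0.40, limma, adjusted p = 0.538).

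In NK-like cells Cxcr3 averaged 0.554 ± 0.223 in deleted hosts (n = 4) and 0.790 ± 0.143 in wild-type hosts (SD, n = 3), with a log2 difference of -0.52 and an SE of 0.35 (limma, adjusted p = 0.665, where 1.01% of 7613 genes passed). The sign is not settled, since summed UMIs gave 0.47 and median-ratio scaling 0.31. This class also held cells with UMIs of Cd8a, Cd8b1 or Trac. Without them, a choice made after the data were seen, Cxcr3 averaged 0.353 ± 0.120 in deleted hosts and 0.810 ± 0.381 in wild-type hosts (log2 difference -0.95, SE 0.40, limma, adjusted p = 0.651, where 0.131% of 6871 genes passed).

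**Figure D5:**
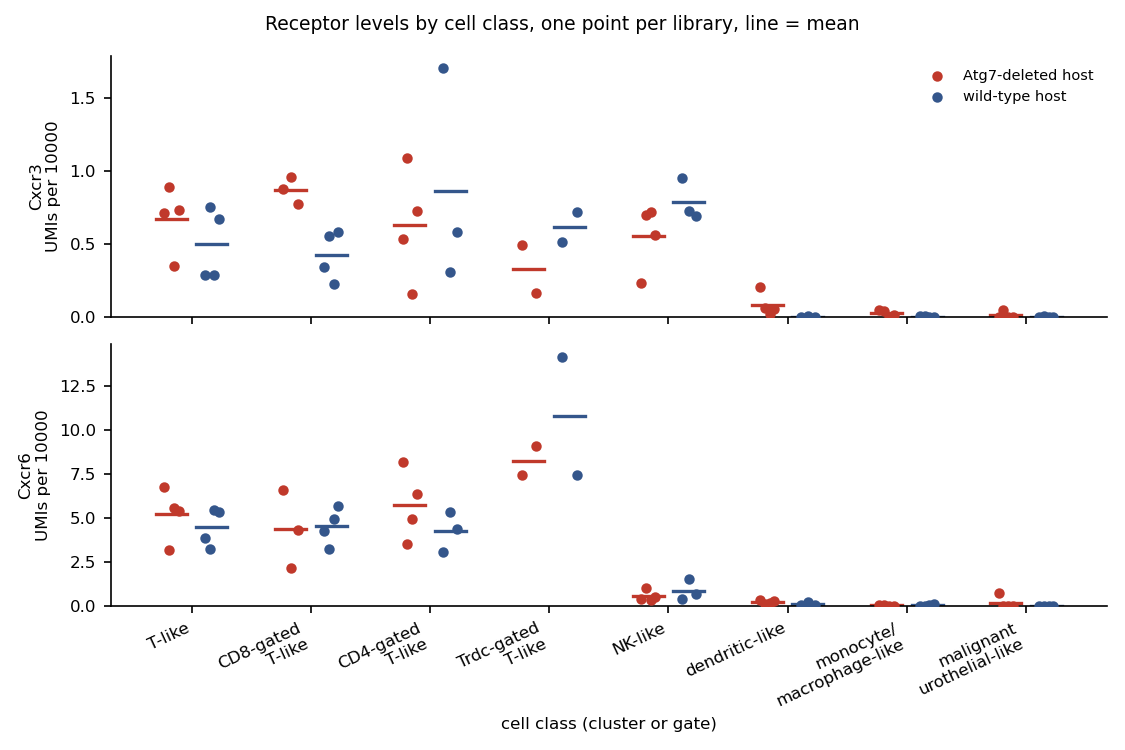
Levels of Cxcr3 and Cxcr6 (y axes, UMIs per 10000, linear from 0) by cell class (x axis), with 1 point per library and a line at the mean, deleted hosts in red left of wild-type hosts in blue. In CD8-gated cells the 3 deleted libraries of Cxcr3 sit between 0.776 and 0.957, above the highest wild-type library at 0.582, and Cxcr6 overlaps in each class shown.

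Cxcr6 was a T cell gene in these tumors. It averaged 4.84 ± 1.27 in T-like cells (SD, n = 8), above 0.686 ± 0.442 in NK-like cells (n = 7) in every library that had both, and 0.173 ± 0.108 or less in other classes. Its level in T-like cells was 6.77, 3.19, 5.54 and 5.38 in deleted libraries 3, 4, 7 and 8, against 3.87, 3.24, 5.42 and 5.34 in wild-type libraries 1, 2, 5 and 6. The groups overlapped, and the log2 difference was 0.20 with an SE of 0.27 (limma, adjusted p = 0.768). After thinning, 33.8% ± 8.60 of T-like cells had a Cxcr6 UMI in deleted hosts and 31.1% ± 6.17 in wild-type hosts (SD, n = 4 each, exact permutation p = 0.686). Thinning left out 35 of 960 cells in deleted hosts and 67 of 1131 in wild-type hosts, and malignant-like cells gave 0% in deleted hosts, as 0 of 319 cells, which by counting error alone allows a share of up to 0.940%, and 0.0460% in wild-type hosts.

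Both the CD8-gated and the CD4-gated cells carried Cxcr6, with overlap between genotypes. CD8-gated cells averaged 4.34 ± 2.23 in deleted hosts (n = 3) and 4.51 ± 1.03 in wild-type hosts (n = 4), and CD4-gated cells 5.74 ± 1.98 in deleted hosts (n = 4) and 4.26 ± 1.15 in wild-type hosts (SD, n = 3). Their log2 differences were -0.17 with an SE of 0.35 and 0.39 with an SE of 0.35 (limma, adjusted p = 0.935 and 0.739). In NK-like cells Cxcr6 averaged 0.550 ± 0.300 in deleted hosts and 0.868 ± 0.603 in wild-type hosts (log2 difference -0.49, SE 0.43, limma, adjusted p = 0.748). The share of thinned NK-like cells with a Cxcr6 UMI was 1.67% ± 0.521 in deleted hosts (n = 4) and 4.61% ± 2.50 in wild-type hosts (n = 3), at the smallest exact permutation p of 0.0571 (adjusted p = 0.457). Of T-like cells with a Cxcr6 UMI, 5.19% ± 1.81 also had a Cxcr3 UMI in deleted hosts (n = 4) and 3.63% ± 2.46 in wild-type hosts (n = 3), against 6.36% ± 2.34 and 4.68% ± 2.90 of T-like cells without one.

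T-like cells with a UMI of Trdc, a gene of the gamma delta T cell receptor, and none of Cd4, Cd8a or Cd8b1 held both a receptor and a ligand. Their Cxcr6 was 7.40 and 9.09 in deleted libraries 4 and 8, against 14.1 and 7.42 in wild-type libraries 5 and 6. Their Cxcl10 was 7.65 and 3.64 in deleted libraries 4 and 8, against 8.72 and 12.9 in wild-type libraries 5 and 6, while Cxcl9 was at 0 in all 4. By counting error alone that allows a Cxcl9 UMI in up to 3.09% of the 97 cells in deleted hosts and 6.67% of the 45 cells in wild-type hosts, and it does not limit how many cells express the gene. With 2 libraries per genotype these are values of 21 to 67 cells each, and the log2 difference of Cxcl10 was -0.99 with an SE of 0.48 (limma, adjusted p = 0.677), where no gene passed and 17.6% of 4834 genes showed the same order without overlap. Their Cxcr3, also lower without overlap, was 0.492 and 0.167 in deleted libraries 4 and 8, against 0.512 and 0.719 in wild-type libraries 5 and 6 (limma, adjusted p = 0.855). Cxcl16 was 0.475 and 0.0414 in deleted libraries 4 and 8, against 0 in both wild-type libraries, an order with deleted hosts higher that 19.7% of genes showed. Cluster 15, led by Trdc, Cd163l1 and Il17a, showed the same, with Cxcl10 at 5.57 in deleted hosts and 10.4 in wild-type hosts.

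Cxcl9 in the whole T-like class was 0.308, 0.454, 0 and 0.173 in deleted libraries 3, 4, 7 and 8, against 0.640, 0.708, 0.408 and 0.564 in wild-type libraries 1, 2, 5 and 6. Deleted library 4 lay above wild-type library 5, and the log2 difference was -1.26 with an SE of 0.42 (limma, adjusted p = 0.195). With the barcode set as a term limma's adjusted p was 0.0249, where 4.25% of genes passed. Among the T-like clusters, Cxcl9 and Cxcl16 levels were highest in cluster 16 and Cxcl10 levels in cluster 15. Cluster 16, of 300 cells with T cell genes such as Cd8a and Trac, held Cxcl9 at 1.39 in deleted hosts and 3.54 in wild-type hosts and Cxcl16 at 6.15 in deleted hosts and 4.02 in wild-type hosts. In clusters 9 and 17 Cxcl9 was at most 0.218 in any library. The monocyte/macrophage markers summed to 4.67 to 21.5 in T-like cells of deleted hosts and 10.8 to 21.5 in those of wild-type hosts, the doublet caller marked 0.386% of cells, too few for a working filter, and the part of doublets in these ligand values was not tested.

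The other ligand values of lymphocytes overlapped between genotypes. Cxcl10 in T-like cells averaged 1.08 ± 0.600 in deleted hosts and 1.27 ± 0.387 in wild-type hosts (SD, n = 4 each), a log2 difference of -0.29 with an SE of 0.34 (limma, adjusted p = 0.734). In NK-like cells it averaged 0.579 ± 0.407 in deleted hosts (n = 4) and 0.963 ± 0.0762 in wild-type hosts (SD, n = 3), with deleted library 4 at 1.18 above all others (log2 difference -0.80, SE 0.38, limma, unadjusted p = 0.0494, adjusted p = 0.507). Cxcl16 averaged 0.871 ± 0.614 in deleted hosts and 0.868 ± 0.498 in wild-type hosts in T-like cells (limma, adjusted p = 0.912), and 0.614 ± 0.573 and 0.243 ± 0.142 in NK-like cells in the same order (limma, adjusted p = 0.763). Among CD8-gated, CD4-gated and NK-like cells without T cell genes, limma's adjusted p of the tested ligands was at least 0.758.

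No listed inducer of these ligands passed the test in any of the 7 classes. Of the listed inducers of the interferon-gamma ligands, which include Ifng, its receptor genes, Jak1, Jak2, Irf1, Irf8, Tnf, Nfkb1 and Rela, 0 of 10 tested passed in monocyte/macrophage-like cells, with a median log2 difference of -0.15 against 0.05 over all genes, and 0 of 10 passed in dendritic-like cells, with a median of 0.18 against 0.11. In T-like cells 0 of 11 passed, with a median of 0.42 against 0.09, and 2 were higher and 1 lower in deleted hosts without overlap. In neutrophil-like cells 0 of 8 passed, with a median of 0.46 against 0.15. Values of Irf1 and Ifng are given as examples and do not stand for the whole list, whose medians are above. The T-like class mixes subsets whose shares differed between genotypes, so its Ifng mean does not give the level within a subset. Irf1, a transcription factor induced by interferon-gamma, averaged 3.47 in deleted hosts and 3.48 in wild-type hosts in monocyte/macrophage-like cells. Ifng, the gene of interferon-gamma, averaged 1.90 in deleted hosts and 1.88 in wild-type hosts in T-like cells (log2 difference 0.00, limma, adjusted p = 1.00).

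Of the proteases Dpp4, Adam10 and Adam17, and of the receptor programme with Tbx21 and Eomes, none passed in any of the 7 classes. Among other chemokines and receptors that guide lymphocytes, 2 of 11 tested in T-like cells passed, both lower in deleted hosts. Ccl5, a chemokine of activated CD8 T cells and NK cells, averaged 18.1 ± 7.07 in deleted hosts and 78.3 ± 23.6 in wild-type hosts (log2 difference -2.16, SE 0.34, limma, adjusted p = 0.0250), and Cx3cr1, a receptor of cytotoxic effector cells, 0.0771 ± 0.0331 and 0.391 ± 0.0888 in the same order (log2 difference -1.47, SE 0.24, limma, adjusted p = 0.0250, SD, n = 4 each). The subset shares of the T-like class differed as described for clusters 9 and 17. Leaving out library 1, 2, 3, 6 or 7 ended each of these calls, with limma's adjusted p up to 0.0858. Of other processing settings, 4 of 11 ended the call of Ccl5 (limma's adjusted p up to 0.160) and 1 of 9 that of Cx3cr1 (up to 0.155).

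In CD4-gated cells Ccl5 was lower too, at 3.09 ± 0.880 in deleted hosts (n = 4) and 22.4 ± 13.2 in wild-type hosts (SD, n = 3; limma, adjusted p = 0.0329), and leaving out library 2, 3, 4, 6, 7 or 8 ended that call, as did 7 of 11 other settings (limma's adjusted p up to 0.368). In malignant-like cells Ccl5 was higher, at 1.43 ± 0.877 in deleted hosts and 0.240 ± 0.116 in wild-type hosts (limma, adjusted p = 0.0430), beside the markers given above. That call was kept in 1 of 8 fits that left out a library, the one without library 7, and ended in 5 of 10 other settings (limma's adjusted p up to 0.0898). Ccl17, a ligand of CCR4 from dendritic cells, was the 1 listed gene of 12 that passed in dendritic-like cells, higher at 2.13 ± 1.46 in deleted hosts (n = 4) and 0.280 ± 0.174 in wild-type hosts (SD, n = 3; log2 difference 2.48, limma, adjusted p = 0.0328), and leaving out library 2, 3, 6 or 7 ended the call, as did 6 of 11 other settings, with limma's adjusted p up to 0.318 and log2 differences of 0.48 to 2.88.

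The genes whose levels followed each member most closely were found over 59 class-by-library means, which share libraries and depth, among 9002 genes by Pearson correlation of log2 levels. Cxcl9 was followed by Myo1c (0.79), Plscr3 (0.74) and Sh3pxd2b (0.73), with Cxcl10 in rank 13 (0.67), and Cxcl10 by Pnp (0.81), Marcks (0.80) and Ifi204 (0.80). For Cxcl16 they were Dab2 (0.89) and the class II antigen presentation genes H2-Ab1 and H2-Aa (0.86 each). Cxcr3 was followed by Jakmip1 (0.96), Skap1 (0.95) and Sh2d2a (0.95), and Cxcr6 by Ctla4 (0.94), Bcl11b (0.93) and Icos (0.92). The correlation of the receptors with each other was 0.82.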

How the data were processed

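Single cells of 8 tumors were sequenced with a 10x Genomics 5′ kit, per the labels' protocols, and processed with Cell Ranger 2.1, Seurat 3.0 and the mm10 genome, per the submitters' processing notes. The authors deposited natural log values, ln(1 + 10000 × UMIs / total UMIs of the cell), and 100% of values gave whole UMIs within 0.01 when turned back. Totals per library ran from 4371773 to 59235799 UMIs, and the precision of sparse genes is limited by counting error.

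From these, cells with at least 200 genes and at most 10% mitochondrial UMIs were kept, 919 cells were removed, and of 114 called doublets (0.386%, too few for a working filter) 104 more were removed. Cells were clustered on 2000 variable genes and 30 principal components without the axis genes (scanpy 1.11.5, igraph 0.11.9, Leiden resolution 1, Python 3.11.15). Of 24 clusters, 23 were named by markers and 1 of 97 cells was left unnamed. Levels per class and library were tested on log2(level + 0.1) with limma 3.58.1 (R 4.3.3, empirical Bayes with trend) on classes with at least 20 cells, with p adjusted over all genes tested. Differences in shares, whole-tumor levels and between classes used two-sided exact permutation tests (scipy 1.17.1). The fits were tested on simulated data. Alternatives were pseudocounts of 0.02 and 0.5, no detection filter, other scalings, thinning to 1000 UMIs, a barcode set term, other clusterings, at least 500 genes per cell, and each library left out.

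The naming rule took the members in each class or subset that tested them, listed pathway genes where they passed, and the genes with the highest correlations, of which up to 3 are printed. Values of Irf1 and Ifng, which did not pass, are given outside this rule. The members and lists were chosen with earlier results of these data known. Symbols were matched to GENCODE M21 for 98.68% of genes, and promoter windows are from RefSeq GRCm38.p6.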

Additional observations from a re-analysis of the deposited data

Results flagged for a closer look

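Among 41 sets of 4 library values tested for a value far from the rest, 2 stood out, and chance gives about 1 in 20. Cxcl16 in dendritic-like cells was 3.59 UMIs per 10000 in deleted library 7, below the other 3 deleted libraries, with a gap of 0.851 of the range of its group. Cxcl16 in fibroblast-like cells was 2.19 in wild-type library 1, above the other 3 wild-type libraries, with a gap of 0.967 of the range.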

How the results depend on the processing

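No paired analysis was possible because the libraries of the genotypes share no replicate numbers. With the barcode set as a term, differences that had not passed did so: Cxcl9 at -2.19 in monocyte/macrophage-like and -1.25 in dendritic-like cells, Cxcl10 at -1.21 in monocyte/macrophage-like cells and Cxcl16 at 1.22 in malignant-like cells. The same held for Cxcl9 at -1.26 in T-like cells, -2.48 in C1q-gated cells and -2.135 in cells below the C1q gate. It also held for Cxcl10 at -1.28 in cells below that gate. Cxcl16 in malignant-like cells also passed with the mean of deposited logs (0.28), summed UMIs (1.38) and median-ratio scaling (1.41). The sign turned for Cxcl10 in neutrophil-like cells with mean logs (0.28), summed UMIs (0.013), thinning (0.21) and at least 500 genes (0.58), for Cxcr3 in T-like cells at clustering resolution 0.5 (-0.40), and for Cxcr3 in NK-like cells with summed UMIs (0.47), median-ratio scaling (0.31), resolution 0.5 (0.26) and axis genes in the clustering (0.20). Shares also turned, in percentage points: Cxcr3 in NK-like cells without thinning (1.38) and at 2000 UMIs (3.15), Cxcr6 in T-like cells without thinning (-1.35) and Cxcr6 in CD8-gated cells at 2000 UMIs (-1.66). Without malignant-like cells the whole-tumor differences were -1.57 for Cxcl10, -0.0269 for Cxcr3 and -0.306 for Cxcr6. Leaving out each library gave ranges across 0 for Cxcl10 in fibroblast-like (-0.35 to 0.44) and neutrophil-like cells (-0.29 to 0.36), Cxcr3 in CD4-gated (-0.80 to 0.26) and Cxcr6 in CD8-gated cells (-0.53 to 0.26), whole-tumor Cxcl9 (-0.195 to 0.187), and the shares of Cxcr6 in CD8-gated (-5.15 to 11.95) and T-like cells (-0.620 to 6.21) and of Cxcr3 in NK-like cells (-2.18 to 0.327). Cxcl9 in monocyte/macrophage-like cells stayed between -2.52 and -1.70, with limma's adjusted p from 0.134 to 0.669. Numbers of genes called ranged over single libraries left out from 2 to 59 in T-like, 0 to 2 in monocyte/macrophage-like, 0 to 24 in dendritic-like and 0 to 96 in malignant-like cells, and with the barcode set term they were 287, 258, 75 and 169. The mean of deposited logs called 1629 genes in malignant-like cells. The causes were not tested. Classes of few cells and the 745 Cxcr3 UMIs limit what could be detected.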
